A study of Oryza sativa with 26 samples.

Results

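SWEET proteins are a family of membrane carriers that let sugars move down their gradient across the plasma membrane or the vacuole membrane. Expression of 10 rice SWEET genes was looked for in the lamina joint, the hinge that joins leaf blade and sheath and sets the leaf angle: SWEET1A, SWEET1B, SWEET2A, SWEET2B, SWEET4, SWEET5, SWEET13, SWEET14, SWEET15 and SWEET16. The genes were chosen by name, as the probe sets whose gene symbol or synonym, with or without the Os prefix, is on that list. Of the 10 genes, 9 were found by name, through 12 of the 57381 probe sets on the array, and SWEET13 is not analysed here. Of a gene with several probe sets, the one with the highest mean over all arrays was used, and the other is given beside it.

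All plants were of the japonica cultivar Zhonghua 11, grown in a greenhouse, with no genotype or treatment contrast. Joints of the last leaf, the second leaf and the third leaf counted from the last were cut by hand at stages 2, 4, 5 and 6. Per the labels, a joint is young and pale at stage 2, mature with the blade still upright at stage 4, opening its angle at stage 5, and senescent and drying at stage 6. The last joint was taken on days 60, 65, 70 and 80 after sowing, the second joint on days 55, 60, 65 and 75, and the third joint on days 50, 55, 60 and 70. A piece of green leaf next to the third joint, taken at stage 4 on day 55, served as the leaf control. There are 26 arrays in 13 groups of 2, described in the labels as biological replicates with no word on separate plants, so p-values cover only the spread between these samples.

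In plants, SWEET carriers release sucrose from leaf cells for loading into the phloem, feed growing grains and floral tissue, and move sugars in and out of vacuoles. The family has 4 clades. Clade I (the SWEET1 and SWEET2 types) and clade II (SWEET4 and SWEET5) mostly carry hexoses, clade III (SWEET14 and SWEET15) mostly carries sucrose, and members of clade IV such as SWEET16 are known as vacuolar carriers in Arabidopsis. SWEET14 is also known as a susceptibility gene that bacterial blight switches on.

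Values are deposited log2 expression per probe set, normalised by the authors with RMA per the submitters' processing notes, so a difference of 1 is 2-fold. Levels are not compared between probe sets, since probe sets differ in brightness. Array medians lay between 5.07 and 5.17, and the arrays of a group correlated at 0.971 to 0.995 over all probe sets. The first array of the second joint at stage 5 had an upper quartile of 7.50, against 7.90 to 8.07 on all the others. The Gapdh control's 3' minus 5' difference, a measure of RNA integrity that rises as RNA is broken, was 1.47 to 2.09 at stage 2 and 3.002 to 3.41 at stage 6. It was 2.93 and 3.33 in the last joint at stage 5, and the second array of the third joint at stage 4 stood apart at 3.78 while the other stage 4 joints gave 1.81 to 2.07. LG1, a gene needed to form the ligule and the joint, was at 5.84 and 6.03 in the leaf piece and at 7.52 to 9.89 in the joints.

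Differences were tested with limma in 1 model of all 26 arrays. A difference was called where it was at least 2-fold and its p, adjusted by Benjamini and Hochberg's method over the 57258 probe sets tested, was under 0.05. Confidence intervals are at the 95% level and not adjusted. Across joint development, SWEET14 and SWEET1B rose between stage 2 and stage 4, and SWEET1A fell by 1 of its 2 probe sets. At stage 4 both SWEET14 and SWEET1B were lower in the third joint than in the leaf piece. Averaged over the 3 joints, 4 of the 9 members were called from stage 2 to stage 4, 3 higher and 1 lower, and SWEET15 was the fourth. In this step 11.5% of all probe sets were called, 5.67% higher and 5.8% lower. For this average no member was called from stage 4 to stage 5, with 0.695% of probe sets called, or from stage 5 to stage 6, with 1.74%. At these later steps limma gave an unadjusted p under 0.05 for 5 and for 4 members, and for 5455 and 10639 of the 57258 probe sets. The median member difference from stage 2 to stage 4 was 0.50, and over all probe sets it was 0.00022. The member median is the value of SWEET4, which was not called, and the members moved both up and down.

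**Figure D1:**
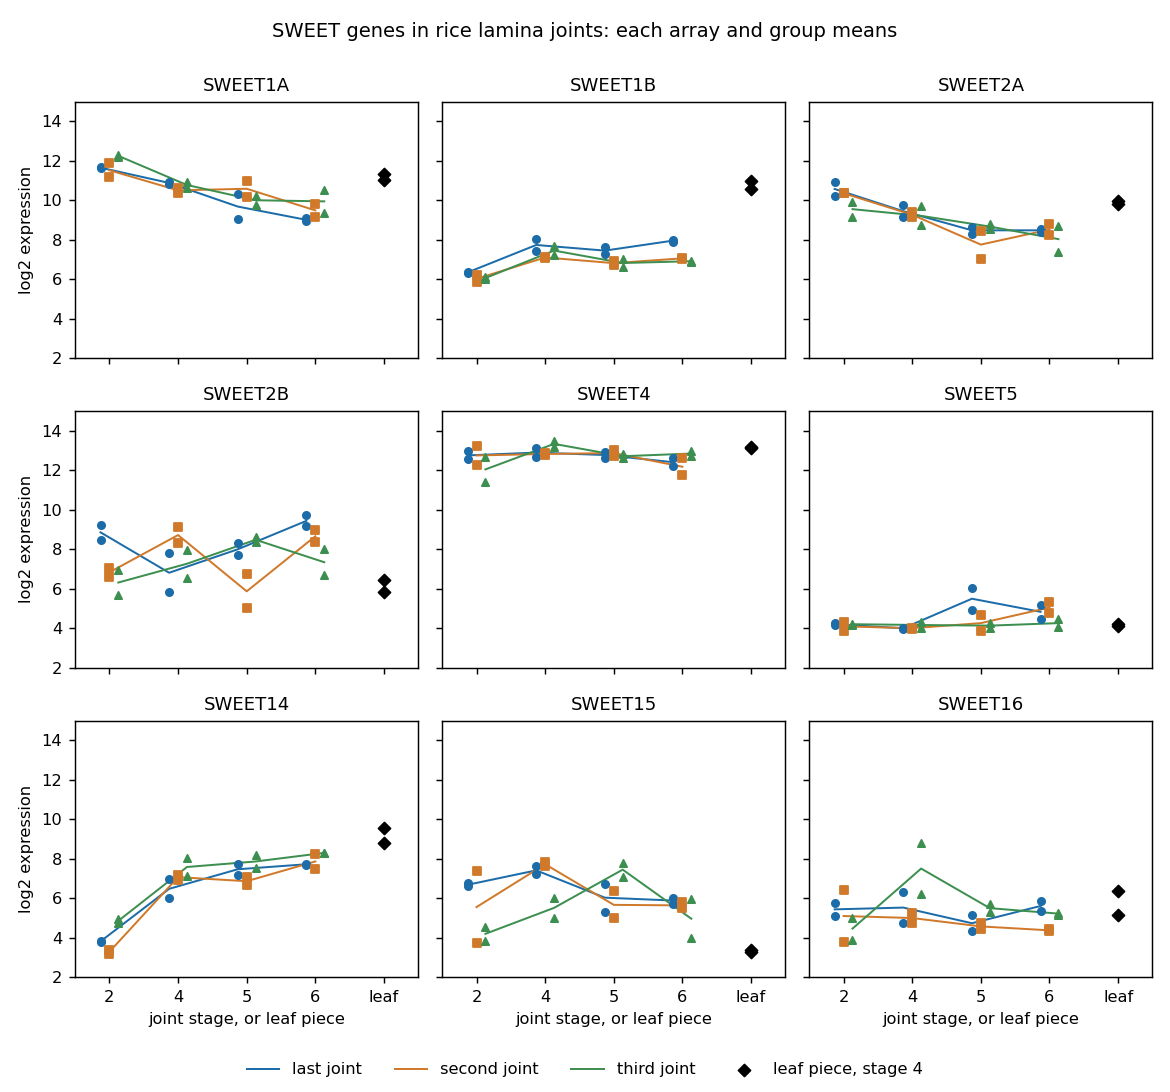
Deposited log2 expression of the 9 measured SWEET genes by joint stage (x axis) for the 3 leaf positions and for the leaf piece; points are single arrays and lines join group means of 2 arrays. SWEET14 climbs from 3.18 to 4.96 at stage 2 to 7.48 to 8.30 at stage 6, and SWEET1B stays at or below 8.05 in joints while both leaf arrays are above 10.5.

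SWEET14 (locus LOC4350572), a clade III carrier of sucrose, had the widest range of the 9 genes, 5.89 between its lowest and highest group means. In the last joint it was at 3.82 and 3.80 at stage 2, at 6.96 and 5.99 at stage 4, at 7.19 and 7.74 at stage 5 and at 7.70 and 7.74 at stage 6. In the second joint the arrays gave 3.39 and 3.18, then 7.19 and 6.94, then 7.06 and 6.66, and 7.48 and 8.25. In the third joint they gave 4.96 and 4.75, then 7.15 and 8.02, then 8.19 and 7.53, and 8.30 and 8.29. All 6 young joint arrays were thus below all later ones, and the leaf piece, at 9.55 and 8.80, was above every joint. From stage 2 to stage 4 the mean of the 3 joints rose by 3.06 (SE 0.206, n = 6 and 6 arrays), which is 8.34-fold, with a limma adjusted p of 5.5e-09. The stage 2 arrays, at 3.18 to 4.96, were below the array medians of 5.07 to 5.17. The fold is thus measured from a dim level, and its size is uncertain. These are bulk samples, in which fewer cells of a type and less RNA per cell cannot be told apart.

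The SWEET14 rise was called in each joint alone, at 2.67 in the last, 3.78 in the second and 2.73 in the third (limma adjusted p 7.23e-05, 1.46e-06 and 2.75e-05). In these steps 9.08%, 10.9% and 14.5% of all probe sets were called. A limma F-test of this step between the 3 joints did not pass (adjusted p 0.342). The interval of the last joint's step ran from 1.91 to 3.42 while that of the second joint's ran from 3.03 to 4.54. The later steps were smaller. From stage 4 to stage 5 SWEET14 differed by 0.36 (interval -0.08 to 0.79), and from stage 5 to stage 6 by 0.56 (interval 0.13 to 0.9996, adjusted p 0.134).

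In the third leaf at stage 4, SWEET14 was lower in the joint than in the leaf piece by 1.59 on the log2 scale, a 3.02-fold difference (log2 difference -1.59, SE 0.357, limma adjusted p 0.00706, 2 arrays each). The arrays were at 7.15 and 8.02 in the joint and at 9.55 and 8.80 in the leaf, with no overlap. This call rests on few arrays. It was lost without the first joint array (-1.16, adjusted p 0.122) and without the first leaf array (-1.22, adjusted p 0.112), and in a fit of these 4 arrays alone (adjusted p 0.115). By position, SWEET14 averaged over stages was lower in the last joint than in the third by 0.78 on the log2 scale (adjusted p 0.0176), and lower in the second joint than in the third by 0.88 (adjusted p 0.0207). Both differences are under the 2-fold limit. At each stage the joints were cut on different days, so leaf position and harvest day cannot be told apart in them.

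The probe set used for SWEET14 carries the x_at suffix, which the array's maker gives to probe sets that may also bind other transcripts. Its other probe set moved alike. That one rose from stage 2 to stage 4 by 3.18 (adjusted p 1.07e-07) and differed from the leaf by -1.57 (adjusted p 0.0451).

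SWEET15 (LOC4329464), the other clade III sucrose carrier, known from the feeding of the rice grain, was much less even between arrays. In the last joint it was at 6.60 and 6.76 at stage 2, at 7.21 and 7.61 at stage 4, at 6.74 and 5.31 at stage 5 and at 5.73 and 6.03 at stage 6. In the second joint the arrays gave 7.39 and 3.71, then 7.82 and 7.62, then 4.98 and 6.35, and 5.79 and 5.48. In the third joint they gave 4.54 and 3.85, then 6.03 and 4.99, then 7.80 and 7.10, and 5.95 and 3.97. The highest stage was therefore stage 4 in the last and second joints and stage 5 in the third, and both leaf arrays, at 3.35 and 3.27, were below every joint array.

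SWEET15 rose by 1.41 from stage 2 to stage 4 (SE 0.493, n = 6 and 6, limma adjusted p 0.0401). The stage 2 arrays of the second joint lay 3.68 apart, the widest gap between paired arrays among the 9 genes. Leaving out single arrays lost this call in 11 of 26 cases, and without the second of those 2 arrays the difference was 0.79 (adjusted p 0.131). A fit of the stage 2 and stage 4 arrays alone gave an adjusted p of 0.0808. Against the leaf piece the third joint was higher by a log2 difference of 2.20 (interval 0.40 to 4.01), which did not pass at an adjusted p of 0.132. It passed at 0.0225 when either stage 2 array of the second joint was left out, since the model shares 1 estimate of the spread. From stage 2 to stage 6 the mean of the 3 joints differed by 0.02 (interval -1.03 to 1.06).

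SWEET1B (LOC4338851), a clade I carrier, had a residual SD of 0.217, near the median of 0.214 over all probe sets, and so was the most evenly measured member. In the last joint its arrays gave 6.37 and 6.30 at stage 2, 7.42 and 8.05 at stage 4, 7.26 and 7.63 at stage 5 and 8.003 and 7.91 at stage 6. In the second joint they gave 6.19 and 5.84, then 7.09 and 7.10, then 6.93 and 6.69, and 7.01 and 7.09. In the third joint they gave 6.02 and 6.09, then 7.66 and 7.23, then 6.61 and 7.03, and 6.88 and 6.94. Every young joint was below every later joint, and after stage 4 the joints stayed within 6.61 to 8.003.

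SWEET1B rose by 1.29 from stage 2 to stage 4 (SE 0.124, n = 6 and 6, limma adjusted p 3.96e-07), a 2.44-fold change. The step was 1.39 in the last joint, 1.08 in the second and 1.39 in the third, each called (adjusted p 0.000282, 0.00189 and 0.000139). Without its second stage 2 array the second joint's step was 0.90, under the 2-fold limit. From stage 4 to stage 5 the difference was -0.40 (interval -0.66 to -0.14), and from stage 5 to stage 6 it was 0.28 (interval 0.02 to 0.54), neither of them called. Among positions the last joint stood above the second by 0.62 (adjusted p 0.0112) and above the third by 0.56 (adjusted p 0.0063), under the 2-fold limit. Here too leaf position goes with harvest day.

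The leaf piece was the highest group of SWEET1B by far. Its arrays, at 10.59 and 10.95, lay 2.82 in the mean above the next group, the last joint at stage 6. The rise within the joint from stage 2 to stage 4 thus left SWEET1B well below the leaf. Of the 9 members, 2 were called in the third joint against the leaf piece, SWEET1B and SWEET14, and both were lower in the joint, where 7.41% of probe sets were called in either direction and 3.99% lower. SWEET1B differed there by -3.32 (SE 0.215, adjusted p 5.56e-08).

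Some markers of green leaf, epidermis, meristem and senescence differed between the groups compared. Of 5 genes of the light-harvesting and Rubisco small subunit list, 3 were lower in the third joint than in the leaf piece, and the mean of the 5 was 9.25 and 9.58 in the joint arrays and 11.3 in both leaf arrays. The list's median difference was -1.46. From stage 2 to stage 4, while SWEET1B and SWEET14 rose, 3 of these 5 genes fell and 1 rose, and across all joint arrays their mean ran from 7.41 to 10.3. Both genes of the epidermis list, LTPL1 and LTP110-A, fell from stage 2 to stage 4, by 1.27 and 6.28 on the log2 scale. The mean of these 2 ran from 13.1 to 13.7 in the stage 2 joint arrays and from 8.77 to 10.3 at stage 4. LTPL1 was also higher in the third joint than in the leaf piece, by 1.103 on the log2 scale (limma adjusted p 0.00261). Of the 6 measured KNOX genes of the meristem list, HOS66 and HOS9 were higher in the third joint than in the leaf. The others lay closer to the leaf piece. OSH1 was at 3.32 and 3.34 in the joint against 3.18 and 3.24, and HOS13 at 4.77 and 4.80 against 4.67 and 4.84. HOS16 was at 3.91 and 3.95 against 3.89 and 3.84, and OSH43 at 5.95 and 5.86 against 5.47 and 5.15. The mean of the 6 was 5.47 and 5.69 in the joint and 4.04 and 4.13 in the leaf piece. From stage 2 to stage 4 HOS66 fell and HOS9 rose, and the mean ran from 5.55 to 6.26 at stage 2 and from 5.47 to 5.87 at stage 4. Of the 2 senescence genes, NYC1 and SGR, neither was called between joint and leaf, and NYC1 rose from stage 2 to stage 4 by 1.15. SGR did not take 1 course in this step. In the last joint SGR was lower at stage 4, at 11.49 and 11.39 against 11.92 and 12.22 at stage 2. In the second joint its arrays overlapped, at 11.91 and 12.26 against 12.72 and 12.07. In the third joint SGR was higher at stage 4, at 11.74 and 11.21 against 10.20 and less at stage 2. The mean of both genes ran from 9.42 to 11.5 at stage 2 and from 10.7 to 11.7 at stage 4. The part of green tissue, epidermis, meristem or senescence in the SWEET differences was not tested.

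SWEET1A (LOC4324848), the other SWEET1 gene of clade I, went the other way within the joint. Its 6 stage 2 arrays ran from 11.16 to 12.30 (median 11.78), those of stage 4 from 10.39 to 10.92 (median 10.73), those of stage 5 from 9.04 to 10.98 (median 10.20) and those of stage 6 from 8.92 to 10.52 (median 9.27). The stage 2 arrays did not overlap with any later joint array. The leaf piece, at 11.31 and 11.03, was at the lower edge of the young joints and above all stage 4 joints. The third joint differed from it by -0.40 (interval -1.24 to 0.44).

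SWEET1A fell by 1.09 from stage 2 to stage 4 (SE 0.23, n = 6 and 6, limma adjusted p 0.00134), and among single joints the step was called in the third (-1.48, adjusted p 0.0123). That call was lost without the second stage 2 array (adjusted p 0.0735) or the second stage 4 array (adjusted p 0.0883). Without the second array of the second joint at stage 2, the mean step was -0.97 and under the 2-fold limit. The following steps were -0.63 (interval -1.12 to -0.14) and -0.61 (interval -1.10 to -0.12), with adjusted p of 0.306 and 0.148. A second probe set for SWEET1A lay between 5.12 and 7.10 on all arrays, and its difference from stage 2 to stage 4 was -0.09 (interval -0.55 to 0.36, adjusted p 0.821). The fall of SWEET1A is thus a result of 1 of its 2 probe sets.

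**Figure D2:**
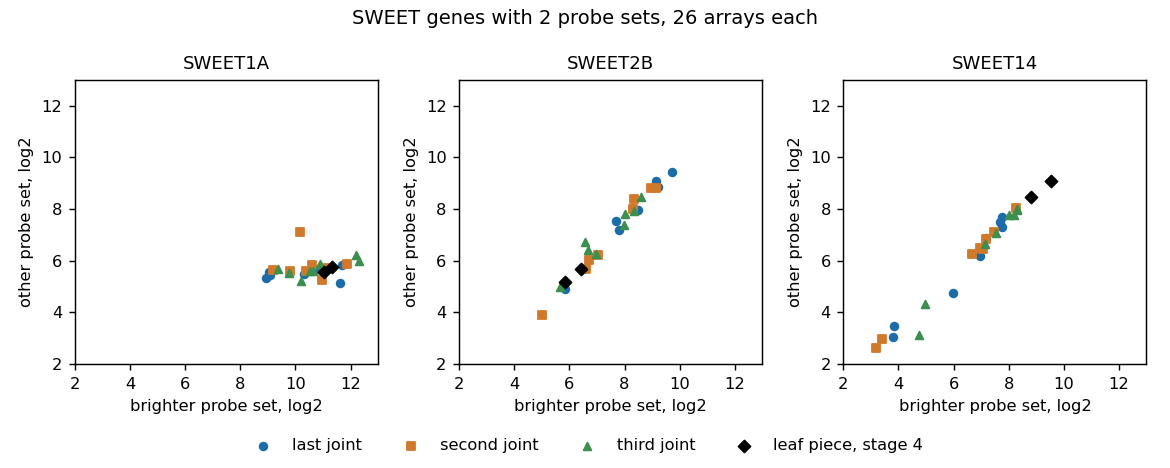
The brighter probe set (x axis) and the other probe set (y axis) of the 3 SWEET genes with 2 probe sets, log2 expression on each of the 26 arrays. The probe sets of SWEET2B and of SWEET14 rise together, while the other probe set of SWEET1A stays between 5.12 and 7.10 as the brighter one runs from 8.92 to 12.3.

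SWEET2A (LOC4326868), a clade I gene, ran downwards through the stages. Its stage 2 joints were at 9.17 to 10.91 (median 10.29), stage 4 joints at 8.73 to 9.76 (median 9.26), stage 5 joints at 7.04 to 8.80 (median 8.50) and stage 6 joints at 7.39 to 8.80 (median 8.47). The stages overlapped in part, and the leaf piece, at 9.79 and 9.95, lay among the young joints. The step from stage 2 to stage 4 was -0.85 (interval -1.41 to -0.29, adjusted p 0.0208), under the 2-fold limit. The next was -1.01 (interval -1.57 to -0.45) with an adjusted p of 0.0834, which passed when any 1 of 4 arrays was left out (adjusted p 0.00934 to 0.048). The last was 0.04 (interval -0.52 to 0.60).

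SWEET2B (LOC4326923), which in rice has been placed at the vacuole membrane, took a different course by stage in each joint. In the last joint its arrays gave 8.48 and 9.23 at stage 2, 5.83 and 7.78 at stage 4, 7.69 and 8.30 at stage 5 and 9.72 and 9.16 at stage 6. In the second joint they gave 7.05 and 6.61, then 9.14 and 8.29, then 5.01 and 6.72, and 8.96 and 8.36. In the third joint they gave 5.66 and 6.97, then 7.97 and 6.56, then 8.60 and 8.36, and 6.67 and 8.01. The lowest stage was therefore stage 4 in the last joint, stage 5 in the second and stage 2 in the third.

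A limma F-test over the 3 steps found that SWEET2B's course by stage differed between the joints (adjusted p 0.0238), and no other member passed it, with 5.48% of all probe sets passing. Each stage fell on a different day in each joint, so leaf position and harvest day cannot be told apart in this F-test. SWEET15 passed it without either stage 2 array of the second joint (adjusted p 0.0258 and 0.0215), and SWEET5 without the first stage 5 array of the last joint (adjusted p 0.0493). Taken singly, the steps from stage 2 to stage 4 (adjusted p 0.0484) and from stage 4 to stage 5 (adjusted p 0.0373) differed between joints, against 4.79% and 2.41% of probe sets, and the last step did not pass (adjusted p 0.157, 0.375% of probe sets). In the second joint SWEET2B fell by 2.85 from stage 4 to stage 5 (adjusted p 0.0478) and rose by 2.79 from stage 5 to stage 6 (adjusted p 0.0253). In those steps 1.29% and 3.93% of all probe sets were called. Both rest on the stage 5 arrays, of which the first, at 5.01, is the array with the low upper quartile. Without it the steps were -2.00 (adjusted p 0.489) and 1.94 (adjusted p 0.277), while the F-test over all steps passed without that array. Leaving out single arrays lost the call into stage 5 in 15 of 26 cases and that out of it in 3.

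The F-test of SWEET2B was lost without 3 single arrays, the first of the second joint at stage 4 (adjusted p 0.0708) and either of the third joint at stage 5 (0.0714 and 0.0613). The probe set used carries the x_at suffix. Its other probe set passed the same F-test at an adjusted p of 0.00891 and gave -3.43 and 3.63 for the steps into and out of stage 5 in the second joint (adjusted p 0.023 and 0.00863). The third joint was above the leaf piece, at 6.42 and 5.83, by 1.14 (interval -0.31 to 2.58), which did not pass.

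SWEET4 (LOC4329093), a clade II hexose carrier known for its part in grain filling, had the narrowest range of group means, 1.29. All 26 arrays lay between 11.39 and 13.48, and the leaf piece, at 13.20 and 13.12, was within the range of the joints. The third joint was at 12.70 and 11.39 at stage 2 and at 13.20 and 13.48 at stage 4, a step of 1.29 that was called (limma adjusted p 0.0194). The call was lost without the second stage 2 array, with a step of 0.64 (adjusted p 0.331), and without the second stage 4 array (1.15, adjusted p 0.126). The same step was 0.14 in the last joint and 0.07 in the second, and over the 3 joints it was 0.50 (interval 0.04 to 0.96, adjusted p 0.0986).

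SWEET5 (LOC4339772), a clade II carrier of galactose in rice, was near 4 on most arrays and was the 1 member that a filter on dim probe sets removed. The last joint was at 3.97 and 4.01 at stage 4 and at 4.94 and 6.04 at stage 5, a step of 1.499 (limma adjusted p 0.0418), and then at 4.47 and 5.18 at stage 6. In the second joint it was at 4.66 and 3.84 at stage 5 and at 4.75 and 5.34 at stage 6. The third joint, at 3.99 to 4.47 on all its arrays, and the leaf piece, at 4.22 and 4.11, stayed low. The step in the last joint was called where 0.791% of all probe sets were, and without the second stage 5 array it was 0.95 (adjusted p 0.566). Leaving out single arrays lost the call in 9 of 26 cases. Both stage 5 arrays of the last joint had a high Gapdh difference, and with that difference as a covariate the step was 1.09 (adjusted p 0.52).

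SWEET16 (LOC4332795), of clade IV, was between 3.78 and 6.41 on every array but the first of the third joint at stage 4, which gave 8.80, while the second gave 6.21. The third joint rose by 3.04 from 5.02 and 3.90 at stage 2 (limma adjusted p 0.0105), while the steps in the last and second joints were 0.09 (interval -1.60 to 1.78) and -0.10 (interval -1.80 to 1.59). The F-test of that step between joints did not pass (adjusted p 0.182). Of the arrays of that group, the lower is the one with the Gapdh difference of 3.78. Without it the step over the 3 joints was 1.44 and called (adjusted p 0.018), against 1.01 with it (adjusted p 0.121), and the joint was above the leaf by 3.03 (adjusted p 0.0323), against 1.74 with it (adjusted p 0.226). Without the first array instead, the step in the third joint was 1.75 (adjusted p 0.172), and without the second stage 2 array it was 2.48 (adjusted p 0.116).

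**Figure D3:**
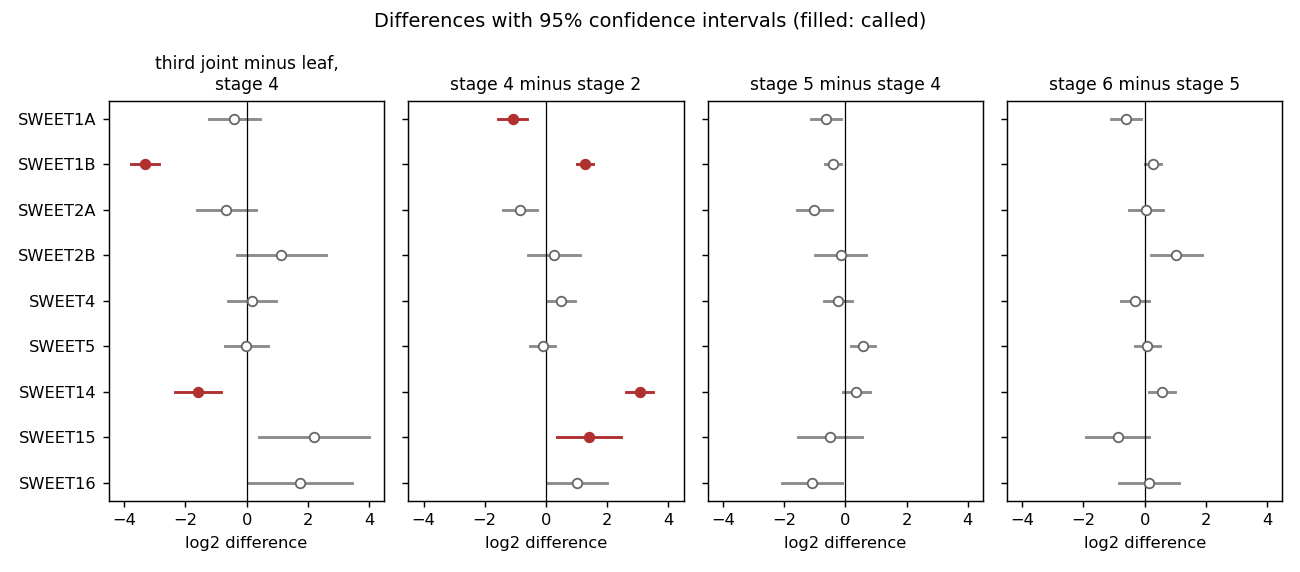
Log2 differences (x axis) of the 9 SWEET genes in the third joint against the leaf piece and in the 3 stage steps averaged over joints; bars are 95% confidence intervals and filled points passed the adjusted p and the 2-fold limit. SWEET1B and SWEET14 are filled below 0 against the leaf and above 0 from stage 2 to stage 4, and the panels for the later steps hold no filled point.

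Over the whole course, steps added up for SWEET1A and SWEET2A. SWEET14 made most of its rise (3.06) and SWEET1B all of it (1.29) from stage 2 to stage 4. For SWEET2B the largest mean step was that from stage 5 to stage 6 (1.03), which was not called (limma adjusted p 0.155). It averages 1.44 in the last joint, 2.79 in the second and -1.14 in the third. In a comparison of stage 6 with stage 2, added after the values had been seen, 5 of the 9 members were called, 3 higher and 2 lower, where 16.5% of all probe sets were called, 8.5% higher and 8.01% lower. SWEET14 was higher at stage 6 by 3.98 (SE 0.206, n = 6 and 6, limma adjusted p 8.1e-11), 15.8-fold from its dim level at stage 2. SWEET1A was lower by a log2 difference of -2.33 (SE 0.23, adjusted p 2.61e-07), and SWEET2A, not called in any single step, by -1.82 (SE 0.264, adjusted p 2.31e-05). The SWEET1A value is that of its brighter probe set, while the other had joint means of 5.80 at stage 2 and 5.56 at stage 6. SWEET1B was higher by 1.17 (SE 0.124, adjusted p 6.18e-07) and SWEET2B by 1.15 (SE 0.395, adjusted p 0.0286). SWEET5 had a difference of 0.55 (interval 0.14 to 0.95, adjusted p 0.0306), under the 2-fold limit. SWEET4, SWEET15 and SWEET16 had differences of -0.04, 0.02 and 0.07, with intervals of -0.50 to 0.42, -1.03 to 1.06 and -0.91 to 1.05.

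RNA integrity moved with this comparison, since every stage 6 array had a higher Gapdh difference than every stage 2 array. With the Gapdh difference as a covariate, SWEET2A was at -1.19 (adjusted p 0.128) and SWEET2B at 2.13 (adjusted p 0.0624), so 3 members were called. Leaving out single arrays lost the SWEET2B call in 6 of 26 cases, with adjusted p up to 0.0985.

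None of the 9 members was called between leaf positions, averaged over the 4 stages. In these comparisons leaf position and harvest day cannot be told apart. The share of all probe sets called was 0.189% for the last against the second joint, 1.14% for the last against the third and 0.375% for the second against the third. Unadjusted limma p-values under 0.05 were found for 2, 6 and 2 members, and for 6338, 10592 and 8848 of the 57258 probe sets tested. Within joints, 12 pairs of a member and a stage step were called, and 9 of these were steps from stage 2 to stage 4. The share of all probe sets called in that step was 9.08% in the last, 10.9% in the second and 14.5% in the third joint, against 0.14% to 3.93% in the later steps. No member was called from stage 4 to stage 5 in the third joint (0.754% of probe sets), or from stage 5 to stage 6 in the last (0.14%) or the third joint (1.03%).

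Across the 13 group means, which come from 26 arrays and share the stages and the leaf positions, SWEET14 ran with SWEET1B (Pearson r 0.68, or 0.72 over the 12 joint groups) and against SWEET1A (-0.66, or -0.82) and SWEET2A (-0.63, or -0.85). SWEET1A and SWEET2A ran together (0.74, or 0.73). SWEET1A and SWEET1B had an r of -0.18 over all groups and of -0.72 without the leaf piece, which was high for both. SWEET4 and SWEET16 had an r of 0.70, which includes the third joint at stage 4 as the highest group of both. These are descriptions of 13 points with no test.

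The genes whose 13 group means were most like those of the 3 widest-ranging members were taken from 2431 other genes with a descriptive name. For SWEET14 they were RFC3 (r 0.976), PHR2 (0.973), a central regulator of phosphate starvation responses, and HAK18 (0.961), of a potassium transporter family. For SWEET1B they were PDX12 (0.976), Trxy (0.952), a thioredoxin, and MADS57 (0.942), a MADS-box gene. For SWEET15 they were GRXS3 (0.920), a glutaredoxin, SAPK7 (0.880), a kinase of the abscisic acid response family, and EXPB6 (0.870), a beta-expansin. The likeness is a rank over few groups and carries no test.

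Outside the 10 genes, the gene table named SWEET11, SWEET12 and a locus shared by SWEET6A and SWEET6B among the measured SWEET genes. SWEET11, a clade III sucrose carrier of the grain, was at 7.92 and 7.80 in the third joint at stage 4 and at 6.62 and 4.35 in the leaf piece, higher in the joint by 2.38 (limma adjusted p 0.0215). That is the opposite side of the leaf from SWEET14, on 2 leaf arrays of SWEET11 that lay far apart. From stage 2 to stage 6 SWEET11 was lower, with a log2 difference of -1.78 (adjusted p 0.000701), where SWEET14 was higher. The probe set of SWEET6A and SWEET6B was at 6.53 and 6.39 in the joint and at 8.03 and 7.30 in the leaf piece, lower in the joint by a log2 difference of -1.21 (SE 0.288, adjusted p 0.0109), the same side as SWEET14 and SWEET1B. SWEET12 stayed between 3.003 and 3.81 on all arrays.

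Other genes of sucrose and hexose handling gave the setting in which the SWEET genes moved. The list held 29 measured genes of sucrose and monosaccharide transporters, invertases, sucrose synthases, sucrose phosphate synthases and hexokinases. From stage 2 to stage 4, 8 of the 29 were called, 4 higher and 4 lower, where 11.5% of all probe sets were called. The list median was 0.03, against 0.50 for the SWEET genes, which is the value of SWEET4, a gene not called in this step. Of 6 sucrose synthases, which split sucrose for use in growing tissue, 3 fell and none rose. SUS6 fell by 4.98 (SE 0.307, limma adjusted p 1.88e-09) and SUS5 by 3.82 (SE 0.253, adjusted p 4.44e-09), and SUS1, named after its values were seen, had a log2 difference of -2.42. SUS6 and SUS1 each have a second, dimmer probe set, whose values are not given here. The largest rise was that of MST3, a monosaccharide transporter, at 4.45 (SE 0.241, adjusted p 3.97e-10). The others called, also named after their values were seen, were the sucrose transporter SUT1 at 1.67, the cell wall invertase CIN4 at 1.91, a hexokinase (LOC4338010) at 1.32 and the cell wall invertase CIN2 at -2.57.

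**Figure D4:**
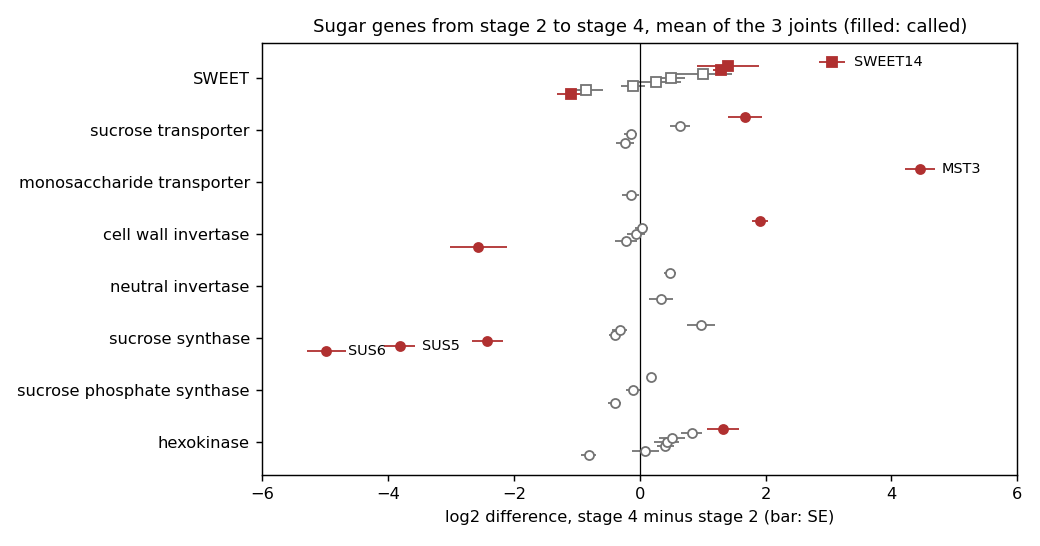
Log2 difference from stage 2 to stage 4, mean of the 3 joints (x axis), for the SWEET genes and 29 other sugar genes by family (y axis); bars are standard errors and filled points passed the adjusted p and the 2-fold limit. SWEET14 at 3.06 lies between SUT1 at 1.67 and MST3 at 4.45, and SUS6, SUS5 and SUS1 are the points furthest below 0 among the sucrose synthases.

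In the third joint against the leaf piece, 4 of the 29 sugar genes were called, 1 higher and 3 lower, where 7.41% of all probe sets were called. SUS1, by the brighter of its 2 probe sets, was higher in the joint by 3.30 (SE 0.427, limma adjusted p 7.3e-05). CIN4, a cell wall invertase, was lower by a log2 difference of -2.23 (SE 0.228, adjusted p 7.29e-06), as were SUS5 at -1.92 (SE 0.438, adjusted p 0.00798) and, named after its values were seen, a hexokinase (LOC4326547) at -1.02. The SUS5 call was lost without the second joint array (adjusted p 0.0544) or the first leaf array (adjusted p 0.058). CIN4 thus shared with SWEET14 and SWEET1B a rise from stage 2 to stage 4 and a level below the leaf. Averaged over the 3 joints from stage 4 on, and between leaf positions averaged over the 4 stages, none of the 29 was called. Unadjusted limma p-values under 0.05 were found for 5 at either late step and for 7, 12 and 6 in the position comparisons. The counts over all probe sets for these comparisons are given above. Within the second joint from stage 5 to stage 6, where 3.93% of all probe sets were called, 2 of the 29 were called. These were NIN1, a neutral invertase, higher by 1.32 (adjusted p 0.0277), and a hexokinase (LOC4338010) lower by a log2 difference of -1.60 (adjusted p 0.0436), both named after their values were seen.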

How the data were processed

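Total RNA of hand-cut joints and leaf was biotin-labelled and hybridised to 1-colour Affymetrix rice arrays, per the labels' protocols. The deposited table holds log2 values for 57381 probe sets on 26 arrays. The authors normalised them with RMA, per the submitters' processing notes, and the sources used here do not give its version, background setting or chip definition. RMA brings arrays to 1 distribution and compresses differences of dim probe sets. No further scaling was applied. The number of arrays limits the precision.

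Names came from the platform annotation and the RefSeq gene table (assembly ASM3414082v1). Of the probe sets, 22436 match 1 gene, 95 several and 34727 none, and 123 controls were left out. In limma 3.58.1 (R 4.3.3), a mean for each of the 13 groups left 13 residual degrees of freedom. Tests are two-sided. The F-test used 6 contrasts with no fold limit. The fit was tested on simulated data.

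Members and lists were chosen with earlier results of these data known. Named were all measured members, the 3 called sugar genes with the largest difference per comparison, and the 3 genes most like each of the 3 widest-ranging members. The symbols SPS1 and SPS2 were ambiguous and left out of the sugar list. Alternatives were the spread estimate, normalisation, filter, probe set choice, fold limit, covariate, replicate block and left-out arrays.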

Additional observations from a re-analysis of the deposited data

Results flagged for a closer look

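The stage steps of SWEET2B differed between the 3 joints by the limma F-test of the difference itself (adjusted p 0.0238). Harvest day differed between the joints at every stage and cannot be told apart from leaf position here. The steps into stage 4 were -2.05 in the last joint, 1.89 in the second and 0.95 in the third, and those into stage 5 were 1.19, -2.85 and 1.22. Its residual SD was 0.764, larger than in 98.4% of all probe sets, and the arrays of the last joint at stage 4 lay 1.95 apart.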

How the results depend on the processing

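In every setting and with every single array left out, SWEET14 and SWEET1B kept their rise from stage 2 to stage 4 and SWEET1B its lower level in the joint than in the leaf. Over left-out arrays these ranged from 2.90 to 3.22, from 1.18 to 1.39 and from -3.54 to -3.11. The cause of the changes below was not tested. The limits lie in 2 arrays a group, members with a wide spread (SWEET15, SWEET16 and SWEET2B), the brightest probe sets of SWEET2B and SWEET14 that may bind other transcripts, and dim probe sets such as SWEET5.

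Replicate differences were correlated between groups with a median r of 0.04 (78 pairs of groups, r from -0.31 to 0.55, over 0.1 in 24). Some pairs of groups thus shared part of them, but the replicate numbers did not pair the samples across all groups. With the number as a replicate block, the members called were 2 against the leaf and 4 from stage 2 to stage 4, and no other result changed its call.

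Without the 2-fold limit, the members called became 1, 2 and 1 for last against the second, last against the third and second against the third joint, and the sugar genes 1, 4 and 1. The probe sets became 414, 3032 and 1061 (from 108, 653 and 215). By stage, the probe sets became 16770, 728, 3093 and, from stage 2 to stage 6, 22302 (from 6564, 398, 994 and 9452), and the sugar genes 17 from stage 2 to stage 4, 3 from stage 5 to stage 6 and 19 from stage 2 to stage 6. The Gapdh covariate left 357 probe sets from stage 5 to stage 6 and 3 members from stage 2 to stage 6. Only the arrays compared gave 2118 probe sets against the leaf (from 4243), 106 for second against the third joint, and 1 sugar gene from stage 4 to stage 5. That count was also 1 with dim probe sets left out and with a variance trend. From stage 5 to stage 6 it was 1 with probe sets averaged, with quantile normalisation and without the pair of arrays that stood apart, which also gave 1 for last against the third joint.

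Values near 0 that turned sign were not called. With the Gapdh covariate they were SWEET4 against the leaf at -0.051, SWEET5 from stage 5 to stage 6 at -0.21, and SWEET4 and SWEET14 for last against the second joint at -0.013 and -0.058. With quantile normalisation they were SWEET2A from stage 5 to stage 6 at -0.030 and SWEET1B for second against the third joint at 0.0079. With the other probe set, chosen after seeing the data, they were SWEET1A against the leaf at 0.065 and for second against the third joint at 0.12, SWEET14 for last against the second joint at -0.00073 and SWEET2B for second against the third joint at -0.011. Without the pair of arrays they were SWEET2A from stage 5 to stage 6 at -0.19 and SWEET4 for last against the third joint at 0.0078.

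With single arrays left out, the members called ranged from 1 to 3 against the leaf, from 2 to 5 from stage 2 to stage 4, from 0 to 1 at both later steps and for last against the third joint, and the members passing the F-test from 0 to 2. Sugar genes ranged from 0 to 1 at both later steps and for last against the third joint. Probe sets ranged from 243 to 720 and from 652 to 1627 at the later steps, from 62 to 226 for last against the second joint and from 115 to 395 for second against the third joint. Signs changed for SWEET5 against the leaf (-0.16 to 0.14) and from stage 5 to stage 6 (-0.10 to 0.27), for SWEET2B from stage 2 to stage 4 (-0.062 to 0.59), from stage 4 to stage 5 (-0.47 to 0.18) and for second against the third joint (-0.044 to 0.38), and for SWEET2A from stage 5 to stage 6 (-0.19 to 0.28) and for second against the third joint (-0.068 to 0.29). They changed for SWEET16 from stage 5 to stage 6 (-0.0039 to 0.27) and from stage 2 to stage 6 (-0.37 to 0.51), for SWEET15 from stage 2 to stage 6 (-0.60 to 0.63) and for last against the second joint (-0.10 to 0.82), and for SWEET14 for last against the second joint (-0.022 to 0.22). SWEET4 changed sign for last against the second joint (-0.074 to 0.17), last against the third joint (-0.19 to 0.14), second against the third joint (-0.24 to 0.085) and from stage 2 to stage 6 (-0.26 to 0.18).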

Other observations

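Over the whole course from stage 2 to stage 6, a comparison added after the values had been seen, 10 of the 29 sugar genes were called, 5 higher and 5 lower. In this comparison 16.5% of all probe sets were called. The monosaccharide transporter MST3 was higher at stage 6 by 5.91 (SE 0.241, limma adjusted p 4.58e-12, 6 arrays each). The sucrose synthases SUS6 and SUS5 were lower, with log2 differences of -5.76 (SE 0.307, adjusted p 1.15e-10) and -4.83 (SE 0.253, adjusted p 9.3e-11), while SUS4 of the same family, named after its values were seen, was higher by 1.08 (adjusted p 0.000829). Of the 5 green leaf genes, 3 were lower over the same course, with a list median of -1.97. The Gapdh difference rose over this course, as given above.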
